A study of Mus musculus with 6 samples.

Results

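Neuronal calcium sensors and calcium buffers are EF-hand proteins, which bind calcium in paired helix-loop-helix motifs. Sensors change shape when calcium rises and then act on channels, kinases or membranes, and many carry a myristoyl group that lets them move to membranes. Buffers such as the calbindins take up calcium and shape how far and how long a calcium signal lasts. The transcripts of 10 such genes were examined in mouse primary neurons: the calneuron and CaBP genes Caln1 and Cabp1, the 6 genes Hpca, Hpcal1, Hpcal4, Vsnl1, Ncald and Ncs1 of the visinin-like and neuronal calcium sensor family, and the buffer genes Calb1 and Calb2. These genes were selected by gene symbol from the 55416 genes of the deposited table, and the selection was made from earlier results of the same comparison. Their differences between the groups are therefore a description, and nothing is inferred from them.

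The cells were wild-type primary neurons from mouse brain, infected with an adeno-associated virus (AAV) whose insert is driven, per the extraction protocol, by hsyn, the human synapsin promoter, which is active mainly in neurons. The insert was miR-9-3p, a microRNA strand made from the Mir9 hairpins, in 3 libraries and a control in the other 3. The titles and treatment labels name the control a scramble virus, whereas the extraction protocol and the design text name mCherry. The groups are called miR-9-3p AAV and control AAV, and age, brain region, days in culture and time after infection are not given in the sources used here. No label ties the libraries of a group to separate cultures or animals, so the p-values below measure a spread between libraries that may be technical.

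The values are FPKM, fragments per kilobase of exon scaled to the library total, and the depth read from their smallest steps was 16953251 to 17174916 reads in miR-9-3p AAV and 16001205 to 17936453 reads in control AAV. The 8 neuron marker genes were all detected. Of 7 markers of cerebellar Purkinje and granule neurons 5 were tested, and Pcp2 and Gabra6 stayed under 1 FPKM in every library. The means of the 5 in miR-9-3p AAV were 10.6 FPKM for Zic1, 11.5 for Zic2, 7.5 for Car8, 3.61 for Neurod1 and 4.04 for Itpr1. In control AAV they were 6.91, 9.36, 9.77, 3.17 and 3.07 FPKM in the same order. Astrocyte markers were present too, with sums over 8 genes of 299, 323 and 307 FPKM in libraries 1, 2 and 3 of miR-9-3p AAV, against 471, 446 and 406 FPKM in libraries 1, 2 and 3 of control AAV. Of these 8 astrocyte genes 6 were lower in miR-9-3p AAV by log2 fold change, and 2, Slc1a2 and Slc1a3, were higher. Lung transcripts, which primary neurons should not hold, were found in every library and set some libraries apart. Their level, the median over 8 alveolar type 2 cell genes as a fold over the lowest library, was 3.34, 1.15 and 1 in miR-9-3p AAV libraries 1, 2 and 3, against 2.14, 3.26 and 11.5 in control AAV libraries 1, 2 and 3. The mean log2 level of the 8 neuron markers was 6.41, 6.58 and 6.63 in miR-9-3p AAV and 6.50, 6.36 and 5.99 in control AAV, so control AAV library 3 had the most lung RNA and the least neuron RNA. In such bulk samples, fewer neurons and less RNA per neuron cannot be told apart. Each difference of the 10 genes is therefore also given after adjustment for the lung level, which then enters the fit as a covariate, and within 2 sets of libraries that differ in a second lung signal, the share of Bpifa1 to Scgb1a1: a low set (miR-9-3p AAV 2 and 3, control AAV 1) and a high set (miR-9-3p AAV 1, control AAV 2 and 3).

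MicroRNAs bind messenger RNAs mainly through their seed, bases 2 to 8, which pair with matching sites in the 3′ untranslated region (UTR) of the messenger RNA and lower its level or translation. The strand in the virus and the other strand of the same hairpin are shown because the seed searches below use them; capitals mark the seed, and the sequences are those of RefSeq (GRCm38.p6).
mmu-miR-9-3p: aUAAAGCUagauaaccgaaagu
mmu-miR-9-5p: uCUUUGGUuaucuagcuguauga
The 22-base miR-9-3p is encoded on chromosomes 3 (Mir9-1, chr3:88215652-88215673), 13 (Mir9-2, chr13:83738858-83738879) and 7 (Mir9-3, chr7:79505318-79505339), all on the plus strand.

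None of the 10 genes held a miR-9-3p seed match in any 3′ UTR that GENCODE M21 (GRCm38) annotates for its coding transcripts. The motifs searched on the messenger strand were AGCTTTA, the complement of bases 2 to 8, and GCTTTAA, the complement of bases 2 to 7 followed by A, and a site with bases 2 to 8 followed by A holds both. Among 12194 tested coding genes with a 3′ UTR of at least 30 bases, 20.5% held such a match in their longest 3′ UTR. Length matters to such counts, since the 10 longest UTRs run from 434 bases in Cabp1 to 8002 bases in Caln1. For Caln1, 66.5% of the 218 tested genes with a UTR within 20% of its length held a miR-9-3p match and 70.2% held a miR-9-5p match, while Caln1 held neither. For the next longest, Hpcal4 with 3846 bases and Ncs1 with 3724 bases, 43.7% and 43.3% of genes of like length held a miR-9-3p match. Absence of a match says only that these letters are not in the annotated UTRs.

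Matches to miR-9-5p (ACCAAAG or CCAAAGA, which overlap in ACCAAAGA) were found in the longest 3′ UTR of 5 of the 10 genes, with 1 match each, against 23.4% of the 12194 genes. Among genes of like UTR length, a miR-9-5p match was held by 47.5% for Hpcal4, 43.2% for Calb1, 16.7% for Vsnl1, 11.7% for Hpcal1 and 8.5% for Calb2. For the genes without a match it was 70.2% for Caln1, 46.5% for Ncs1, 36.1% for Ncald, 13.5% for Hpca and 7.8% for Cabp1. The 30-base windows around the matches are shown because these are the only miR-9 seed matches that the search found among the 10 genes. Capitals mark the match, and positions are GRCm38.
Calb2: tcttcttgtttACCAAAGAagagtttacag
Hpcal1: cattttctctgACCAAAGccgcttgcatgt
Hpcal4: atcttccttccCCAAAGAattgcttttctt
Vsnl1: cccctccttccCCAAAGAtcaatatggcat
Calb1: aaatgtcgatcCCAAAGAggatagtcccaa
The Calb2 window (chr8:110142567-110142596, minus strand) is the only 8-base match, at bases 499 to 506 of a 546-base UTR. The Hpcal1 window (chr12:17791593-17791622, plus strand) lies at bases 400 to 406 of 729, matched over seed bases 2 to 8. The windows of Hpcal4 (chr4:123193438-123193467, plus strand), Vsnl1 (chr12:11325339-11325368, minus strand) and Calb1 (chr4:15907897-15907926, plus strand) hold the match to bases 2 to 7 with the A. The log2 fold changes of these 5 genes ran from -0.37 in Hpcal1 to 0.81 in Calb2, so the genes with a match lay on both sides of 0. Whether the virus also raised miR-9-5p was not analysed here.

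All 10 genes passed the filter of 1 FPKM in 3 libraries and were tested with the 14229 genes that did. At a limma adjusted p under 0.05, 1 of the 10, Caln1, was called higher in miR-9-3p AAV and 0 were called lower, beside 3.89% of tested genes called higher and 2.40% called lower. An unadjusted p under 0.05 was reached by 4 of the 10 genes and by 26.9% of tested genes. The groups did not overlap in 4 genes, higher in miR-9-3p AAV in 3 (Caln1, Ncs1 and Calb2) and lower in 1 (Hpcal1). Among all tested genes, groups lay apart as higher in 18.2% and as lower in 16.7%. The median log2 fold change was 0.32 over the 10 genes and -0.02 over all tested genes, and it was positive in 9 of the 10 genes, against 47.3% of tested genes. After adjustment for the lung level, the same medians were 0.02 and -0.05, and 6 of the 10 were positive. In that fit 1 of the 10 (Caln1) was called higher and 0 lower, beside 13.2% of tested genes called higher and 17.1% called lower. After scaling to the mean of the 8 neuron markers 0 of the 10 were called (3 had an unadjusted p under 0.05). Over all tested genes 7 were called higher and 145 lower, against 554 and 341 in the values as deposited. Under that scaling the median was 0.06 over the 10 genes, 6 of them positive, and -0.28 over all tested genes. In the values as deposited, the 8 neuron markers had a median of 0.22, with 6 positive. The 8 excitatory neuron markers had a median of 0.33, with 8 positive. After adjustment for the lung level these 2 medians were -0.08 and 0.09. In 9 of the 10 genes the lowest value was that of control AAV library 3, which was the lowest library for 23.7% of tested genes.

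**Figure D1:**
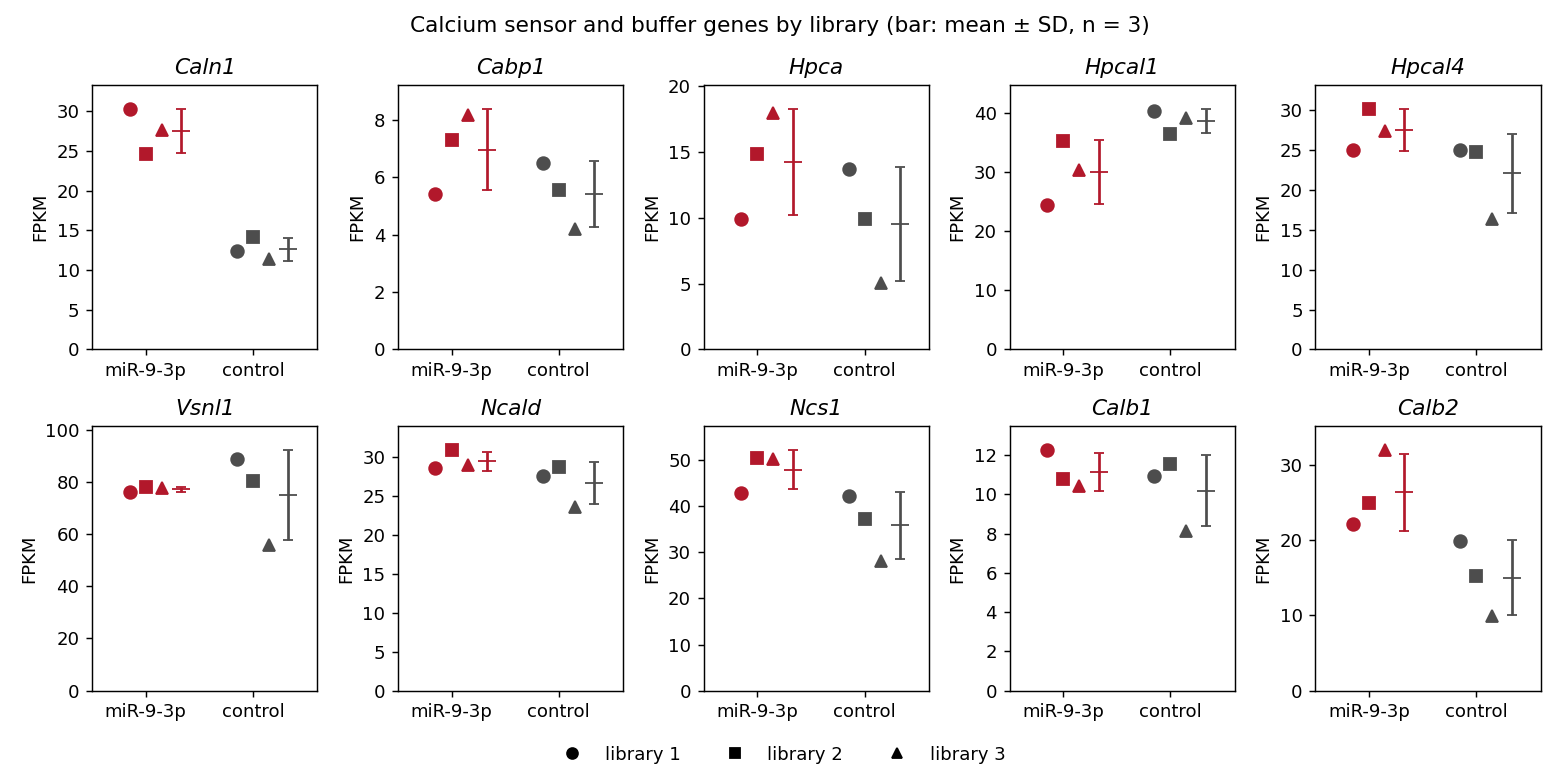
FPKM of the 10 genes in each library, with the mean and SD of each group (n = 3); miR-9-3p AAV in red, control AAV in grey, and marker shapes give the library number. Caln1, Ncs1 and Calb2 lay higher in all miR-9-3p AAV libraries and Hpcal1 lower, and control AAV library 3 (grey triangle) was lowest in every panel but that of Hpcal1.

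Caln1 (ENSMUSG00000060371, chr5:130369455-130847412, plus strand) encodes calneuron 1, a calcium sensor that sits at the Golgi and the plasma membrane and restrains the Golgi lipid kinase PI4KB when calcium is low. Its values were 30.2, 24.7 and 27.6 FPKM in libraries 1, 2 and 3 of miR-9-3p AAV, against 12.4, 14.2 and 11.3 FPKM in libraries 1, 2 and 3 of control AAV. The lowest miR-9-3p AAV library was well above the highest control AAV library. The means were 27.5 ± 2.78 FPKM in miR-9-3p AAV and 12.6 ± 1.44 FPKM in control AAV (SD, n = 3 each), which is 2.18-fold higher in miR-9-3p AAV. On the log2(FPKM + 1) scale the fold change was 1.06 (SE 0.12, limma adjusted p = 0.018), and 0.576% of tested genes had a larger one. These values rest on 4385 to 5441 reads per miR-9-3p AAV library and 2077 to 2668 reads per control AAV library.

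The Caln1 difference was of similar size in both lung sets. It was 1.05 (SE 0.14, limma adjusted p = 0.00702) after adjustment for the lung level, 1.02 within the low set and 1.19 within the high set. Each set holds only 1 library of 1 group, so differences within a set, here and for the other genes, have no SE. Lung levels also differed within each set. The fitted slope of Caln1 on the log2 lung level was -0.01, against -0.48 for Hpca. When the log2 values were scaled to the mean of the 8 neuron markers, the Caln1 difference was 0.81 (limma adjusted p = 0.062), and under that scaling the median of all tested genes was -0.28. The log2 fold changes of the 8 markers themselves ran from -0.02 in Syn1 to 0.65 in Map2. Map2 was itself called higher (limma adjusted p = 0.0374), so the markers are not an even measure of neuron content. The Caln1 call did not hold in fits that left out any 1 library other than control AAV library 3. Leaving out each library in turn, its limma adjusted p ran from 0.0362 to 0.107, with log2 fold changes of 0.995 to 1.145. Caln1 is a long gene, spanning 477958 bases with 10483 exon bases, more than all but 9.08% of the 12275 tested coding genes, and log2 fold changes rose with exon length across tested genes (Spearman rho 0.27, a description over genes that are not independent). With each library's trend on exon length removed, its log2 fold change was 0.91 (limma adjusted p = 0.0279).

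Cabp1 (ENSMUSG00000029544, chr5:115168689-115194381, minus strand) encodes CaBP1, also called caldendrin in its long form, a sensor that competes with calmodulin at voltage-gated calcium channels and inositol trisphosphate receptors. Its values were 5.41, 7.29 and 8.18 FPKM in libraries 1, 2 and 3 of miR-9-3p AAV, against 6.48, 5.56 and 4.19 FPKM in libraries 1, 2 and 3 of control AAV. The groups overlapped, and Cabp1 had the lowest mean of the 10 genes in both groups. Its log2 fold change was 0.31 (SE 0.19, limma adjusted p = 0.32), 0.22 within the low set and 0.13 within the high set, and -0.03 after adjustment for the lung level. The ratio of Caln1 to Cabp1 was 5.59, 3.38 and 3.38 in miR-9-3p AAV, against 1.91, 2.55 and 2.70 in control AAV. These ratios did not overlap between the groups, and neither did Caln1 alone.

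**Figure D2:**
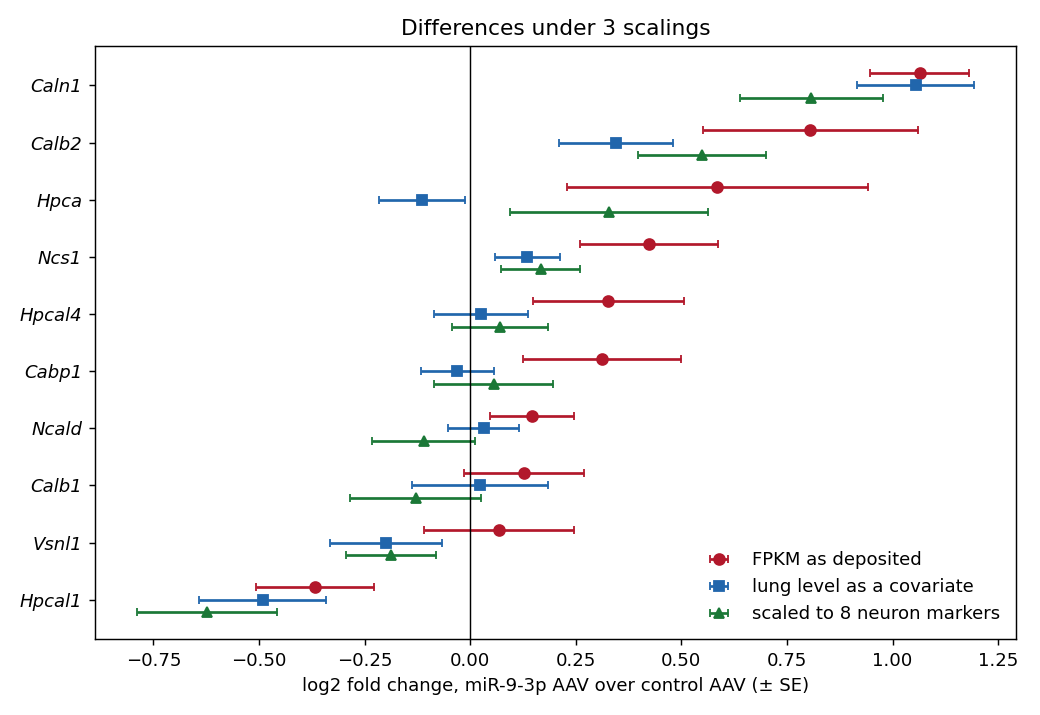
Log2 fold change of each gene, miR-9-3p AAV over control AAV, with its SE, from FPKM as deposited (red circles), after adjustment for the lung level (blue squares) and after scaling to 8 neuron markers (green triangles). Caln1 lay between 0.81 and 1.06 in the 3 fits, Calb2 between 0.35 and 0.81, and Hpca between -0.11 and 0.59.

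Within the visinin-like and neuronal calcium sensor family, none of the 6 genes was called and 5 had a positive log2 fold change. The groups lay apart in 2, Ncs1 as higher and Hpcal1 as lower. Over all tested genes 47.3% were positive, and groups lay apart as higher in 18.2% and as lower in 16.7%. Ncs1 (ENSMUSG00000062661, chr2:31245823-31295989, plus strand) encodes neuronal calcium sensor 1, which supports PI4KB and regulates dopamine D2 receptor desensitization. Its values were 43.0, 50.4 and 50.3 FPKM in libraries 1, 2 and 3 of miR-9-3p AAV, against 42.2, 37.3 and 28.0 FPKM in libraries 1, 2 and 3 of control AAV. The groups lay apart by less than 1 FPKM, between miR-9-3p AAV library 1 and control AAV library 1. The log2 fold change was 0.42 (SE 0.16, limma adjusted p = 0.162) and 0.14 after adjustment for the lung level (limma adjusted p = 0.224); it was 0.25 within the low set and 0.40 within the high set.

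Hpcal1 (ENSMUSG00000071379, chr12:17690856-17791933, plus strand), which encodes hippocalcin-like 1 or VILIP-3, was the only one of the 10 genes with a negative difference in the fit of the values as deposited. It had 24.5, 35.3 and 30.4 FPKM in libraries 1, 2 and 3 of miR-9-3p AAV, against 40.5, 36.5 and 39.2 FPKM in libraries 1, 2 and 3 of control AAV. The groups did not overlap, though miR-9-3p AAV library 2 lay close to control AAV library 2. The means were 30.1 ± 5.39 FPKM in miR-9-3p AAV and 38.7 ± 2.01 FPKM in control AAV (SD, n = 3 each), and the log2 fold change was -0.37 (SE 0.14, limma adjusted p = 0.16). It was -0.30 within the low set and -0.61 within the high set, and -0.49 after adjustment for the lung level (limma adjusted p = 0.0524). With the lung sets as a batch term it was -0.45 and passed the threshold (limma adjusted p = 0.0424). In that fit 1410 of the 14229 tested genes were called higher and 1243 lower, against 554 and 341 in the values as deposited. Of the 50-base stretches of Hpcal1 6.5% also occur in transcripts of other genes, more than for the other 9 genes. Part of the Hpcal1 signal may therefore depend on how shared reads were assigned.

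Hpca (ENSMUSG00000028785, chr4:129111570-129122036, minus strand) encodes hippocalcin, which is abundant in hippocampal neurons and takes part in the slow afterhyperpolarization. It had 9.94, 14.9 and 17.9 FPKM in libraries 1, 2 and 3 of miR-9-3p AAV, against 13.7, 9.94 and 5.05 FPKM in libraries 1, 2 and 3 of control AAV. The groups overlapped: miR-9-3p AAV library 1 and control AAV library 2, which had like lung levels, were at the same value. The log2 fold change was 0.59 (SE 0.36, limma adjusted p = 0.329), 0.24 within the low set and 0.43 within the high set, and -0.11 after adjustment for the lung level. The fitted slope on the log2 lung level was the steepest of the 10 genes, at -0.48.

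Hpca and Hpcal1 encode close relatives, and their ratio separated the groups, as Hpcal1 alone did and Hpca alone did not. The ratio of Hpca to Hpcal1 was 0.405, 0.421 and 0.589 in miR-9-3p AAV libraries 1, 2 and 3, against 0.338, 0.272 and 0.129 in control AAV libraries 1, 2 and 3. Within each group the order of the ratios was the reverse of the lung levels, and the part of lung RNA in them was not tested.

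Vsnl1 (ENSMUSG00000054459, chr12:11325242-11436613, minus strand) encodes visinin-like protein 1, a neuronal protein also used as a marker of neuronal injury in body fluids. It was the highest of the 10 genes, with 76.0, 77.8 and 77.5 FPKM in libraries 1, 2 and 3 of miR-9-3p AAV, against 88.8, 80.2 and 55.6 FPKM in libraries 1, 2 and 3 of control AAV. The control AAV libraries lay on both sides of the miR-9-3p AAV libraries, and the log2 fold change was 0.07 (SE 0.18, limma adjusted p = 0.834). It was -0.19 within the low set, 0.18 within the high set and -0.20 after adjustment for the lung level.

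Ncald (ENSMUSG00000051359, chr15:37366175-37792570, minus strand) encodes neurocalcin delta, and Hpcal4 (ENSMUSG00000046093, chr4:123183227-123194701, plus strand) encodes hippocalcin-like 4, or VILIP-2. Ncald had 28.6, 30.8 and 28.9 FPKM in miR-9-3p AAV, against 27.6, 28.6 and 23.5 FPKM in control AAV, and its log2 fold change was 0.15 (SE 0.10, limma adjusted p = 0.38). Hpcal4 had 25, 30.2 and 27.5 FPKM in miR-9-3p AAV, against 25.1, 24.8 and 16.4 FPKM in control AAV, and its log2 fold change was 0.33 (SE 0.18, limma adjusted p = 0.283). Both overlapped between the groups, and both differences were 0.03 after adjustment for the lung level. Within the low and high sets, Ncald differed by 0.11 and 0.13 and Hpcal4 by 0.19 and 0.30. Ncald spans 426396 bases, nearly as many as Caln1, and the ratio of Caln1 to Ncald was 1.06, 0.801 and 0.957 in miR-9-3p AAV, against 0.449, 0.496 and 0.482 in control AAV. That ratio did not overlap between the groups, and neither did Caln1 alone. Of Ncald's exon bases 7.38% are shared with 2 other genes, which had at most 0.385 FPKM in any library.

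The buffer genes differed in how far the groups lay apart. Calb2 (ENSMUSG00000003657, chr8:110137502-110168210, minus strand) encodes calretinin, which marks a class of interneurons and Cajal-Retzius cells. It had 22.1, 24.9 and 31.9 FPKM in libraries 1, 2 and 3 of miR-9-3p AAV, against 19.9, 15.2 and 9.96 FPKM in libraries 1, 2 and 3 of control AAV. The groups did not overlap, and within each group the order of the libraries was the reverse of their lung levels. The means were 26.3 ± 5.06 FPKM in miR-9-3p AAV and 14.99 ± 4.95 FPKM in control AAV (SD, n = 3 each), 1.75-fold higher in miR-9-3p AAV. The log2 fold change was 0.81 (SE 0.25, limma adjusted p = 0.108), 0.49 within the low set, 0.79 within the high set and 0.35 after adjustment for the lung level (limma adjusted p = 0.101).

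Of the 6 markers of Cajal-Retzius cells, Calb2 among them, 4 were tested, 3 of them with a positive log2 fold change, and the median was 0.31. Reln, a secreted protein of Cajal-Retzius cells and some interneurons, was higher in miR-9-3p AAV, with 26.8, 31.3 and 28.0 FPKM against 20.1, 20.9 and 20.1 FPKM in control AAV (log2 fold change 0.47, limma adjusted p = 0.0372). Ndnf had 4.34, 3.87 and 3.30 FPKM in miR-9-3p AAV, against 5.28, 6.24 and 7.20 FPKM in control AAV (log2 fold change -0.58, limma adjusted p = 0.0583), and was the only negative gene of the 4. Trp73 had a log2 fold change of 0.16 and overlapped. After adjustment for the lung level the median of the 4 was 0.26. In that fit Reln was called higher (0.43, limma adjusted p = 0.0178) and Ndnf lower (-0.37, limma adjusted p = 0.0351). Lhx5, which did not pass the filter, had 0.520, 0.856 and 1.29 FPKM in miR-9-3p AAV, against 0.325, 0.373 and 0.126 FPKM in control AAV, and Lhx1 stayed under 1 FPKM in every library. Of the 9 tested inhibitory neuron markers 1 (Reln) was called higher and 0 lower, beside 3.89% and 2.40% of all tested genes. Their median log2 fold change was 0.04. The sums over the 11 listed markers were 347, 497 and 484 FPKM in miR-9-3p AAV, against 571, 431 and 350 FPKM in control AAV. The sums overlapped, and Pvalb was under 1 FPKM throughout. After adjustment for the lung level, the median of the 9 was -0.16. In that fit 1 was called higher and 3 lower, beside 13.2% of all tested genes called higher and 17.1% called lower. Vip, which did not pass the filter, had 0.240, 0.139 and 0.121 FPKM in miR-9-3p AAV, against 0.955, 1.41 and 0.563 FPKM in control AAV. The part of such cells in the Calb2 values was not tested.

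Calb1 (ENSMUSG00000028222, chr4:15881264-15908064, plus strand) encodes calbindin-D28k, a fast buffer of Purkinje, hippocampal and many inhibitory neurons. It had 12.2, 10.8 and 10.4 FPKM in libraries 1, 2 and 3 of miR-9-3p AAV, against 10.9, 11.5 and 8.13 FPKM in libraries 1, 2 and 3 of control AAV. The groups overlapped and the log2 fold change was 0.13 (SE 0.14, limma adjusted p = 0.596). It was -0.04 within the low set, 0.31 within the high set and 0.02 after adjustment for the lung level. The ratio of Calb2 to Calb1 was 1.80, 2.32 and 3.07 in miR-9-3p AAV, against 1.82, 1.31 and 1.22 in control AAV, and overlapped through miR-9-3p AAV library 1 and control AAV library 1.

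**Figure D3:**
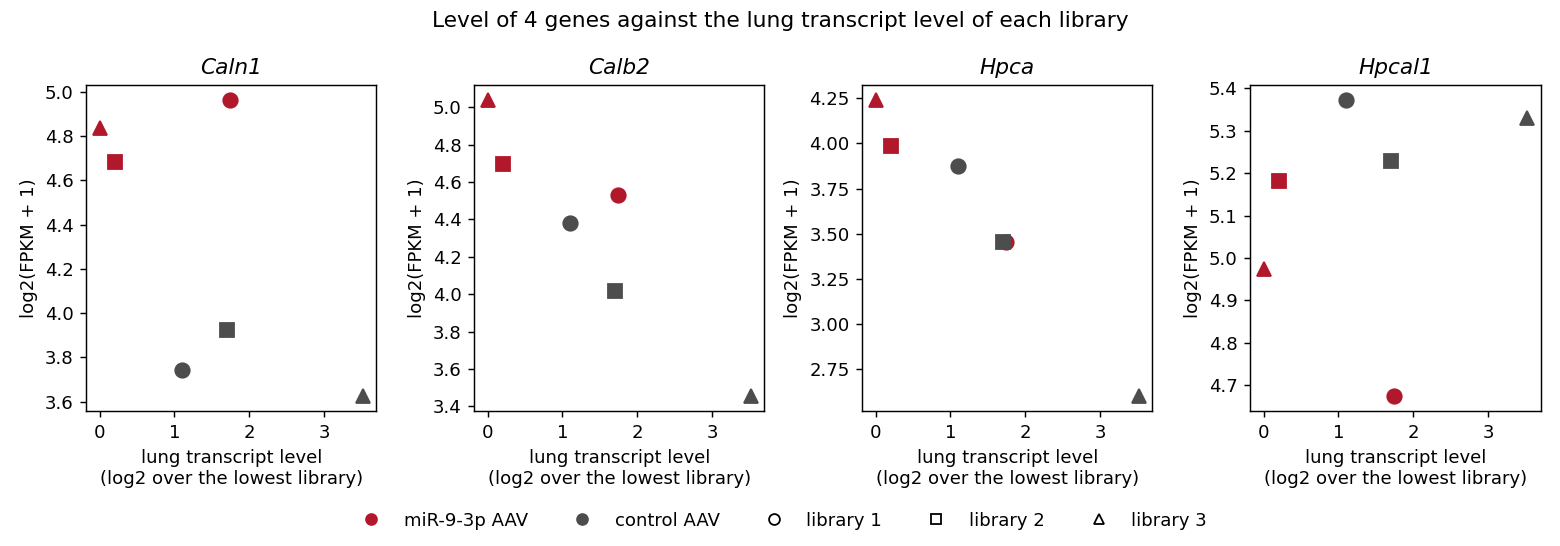
Log2(FPKM + 1) of Caln1, Calb2, Hpca and Hpcal1 against the lung transcript level of each library (log2 over the lowest library), miR-9-3p AAV in red and control AAV in grey. Calb2 and Hpca were lowest in control AAV library 3, which has a lung level 11.5-fold over the lowest, while Caln1 was higher in all miR-9-3p AAV libraries; the lung levels of the groups overlap only over part of the axis.

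Since FPKM is scaled to exon length, levels can be set roughly side by side. That length covers all annotated exons of a gene, and the transcripts in use were not examined, so the order is approximate. In miR-9-3p AAV, Vsnl1 was followed by Ncs1, each apart from the next in every library, and then by Hpcal1, Ncald, Hpcal4, Caln1 and Calb2, whose neighbouring ranges overlapped, with means from 30.1 to 26.3 FPKM. Hpca and Calb1 overlapped below them at 14.2 and 11.1 FPKM, and Cabp1 lay apart at the bottom with 6.96 FPKM. In control AAV, Vsnl1 alone lay apart from the next gene; Hpcal1, Ncs1, Ncald, Hpcal4, Calb2, Caln1, Calb1, Hpca and Cabp1 followed, each overlapping its neighbour, with means from 38.7 to 5.41 FPKM.

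The genes were also expressed as shares of their summed FPKM, which sets each against the other 9 within a library. The sum itself overlapped, at 277, 307 and 311 FPKM in libraries 1, 2 and 3 of miR-9-3p AAV, against 287, 264 and 201 FPKM in libraries 1, 2 and 3 of control AAV. Caln1 held 10.9%, 8.04% and 8.89% of it in miR-9-3p AAV, against 4.31%, 5.38% and 5.63% in control AAV. Hpcal1 held 8.86%, 11.5% and 9.80% in miR-9-3p AAV, against 14.1%, 13.8% and 19.5% in control AAV. These shares did not overlap between the groups. Shares also lay apart for Calb2 (8.79% ± 1.29 in miR-9-3p AAV and 5.87% ± 0.989 in control AAV, SD, n = 3 each) and for Ncs1 (16.04% ± 0.468 in miR-9-3p AAV and 14.3% ± 0.388 in control AAV). The share of Vsnl1 was lower in miR-9-3p AAV without overlap, at 27.4%, 25.4% and 24.9%, against 30.9%, 30.4% and 27.6% in control AAV. Shares of 1 sum are not independent, and the other 5 genes overlapped.

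**Figure D4:**
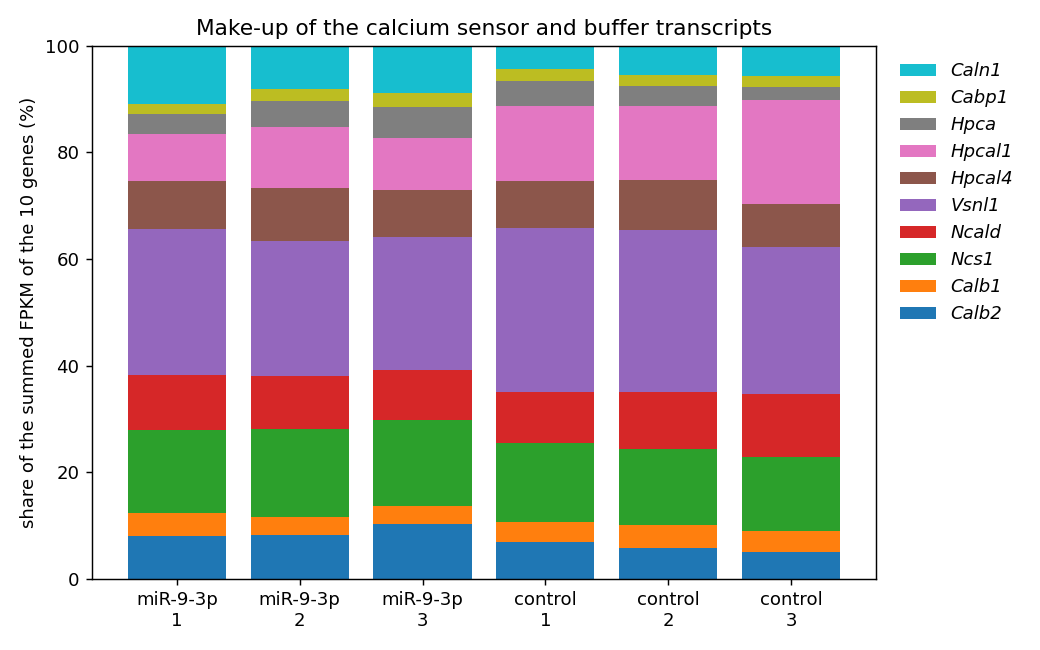
Share of each gene in the summed FPKM of the 10 genes, in percent, 1 bar per library with miR-9-3p AAV on the left. Caln1 (top) held 8.04% to 10.9% in miR-9-3p AAV and 4.31% to 5.63% in control AAV, while Hpcal1 (pink) held 8.86% to 11.5% in miR-9-3p AAV and 13.8% to 19.5% in control AAV.

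The surrounding calcium-binding and partner genes were read from 8 lists of 60 genes, of which 47 were tested. Of these, 3 were called higher in miR-9-3p AAV and 0 lower, beside 3.89% and 2.40% of all tested genes, and the median log2 fold change was 0.03. All 3 belong to the 17 genes for lipid modification and known partners of the sensors, a list whose median was 0.23. Cacna1d, the pore subunit of the L-type calcium channel Cav1.3, had 5.68, 5.75 and 5.46 FPKM in miR-9-3p AAV, against 2.83, 2.91 and 2.98 FPKM in control AAV (log2 fold change 0.76, limma adjusted p = 0.017). Trpc5, a cation channel that NCS-1 binds, had 2.57, 2.33 and 2.59 FPKM in miR-9-3p AAV, against 0.798, 1.03 and 1.42 FPKM in control AAV (log2 fold change 0.76, limma adjusted p = 0.0363). Cacna1c, the pore subunit of Cav1.2, had 7.98, 8.14 and 8.37 FPKM in miR-9-3p AAV, against 5.74, 6 and 5.01 FPKM in control AAV (log2 fold change 0.48, limma adjusted p = 0.0367). In each of these channel genes the groups lay apart. After adjustment for the lung level their log2 fold changes were 0.79 for Cacna1d, 0.92 for Trpc5 and 0.39 for Cacna1c. In that fit 7 of the 17 genes were called higher and 1 lower, beside 13.2% of all tested genes called higher and 17.1% called lower.

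The other 7 lists held no called gene in the fit of the values as deposited. After adjustment for the lung level, 0 of their genes were called higher, beside 13.2% of all tested genes. Called lower in that fit were 1 of 3 tested calmodulin genes and 3 of 6 other EF-hand buffers. So were 3 of 12 NECAB and other neuronal EF-hand genes, beside 17.1% of all tested genes. Of 7 calmodulin genes, which encode the general calcium sensor of all cells, 3 were tested with a median of 0.12, and Calm4 and Calm5 were listed at 0 in every library. Calm2, the highest of them, had 521, 482 and 482 FPKM in miR-9-3p AAV, against 513, 509 and 452 FPKM in control AAV, and overlapped. Of 4 other CaBP and calneuron genes only Cabp7, which encodes calneuron 2, was tested. It had 1.13, 1.64 and 1.077 FPKM in miR-9-3p AAV, against 0.476, 0.552 and 0.322 FPKM in control AAV, and the groups lay apart (log2 fold change 0.65, limma adjusted p = 0.0612, and 0.54 after adjustment for the lung level). Its level was far below that of Caln1. None of the 3 recoverin and guanylate cyclase activator genes, which act in photoreceptors, passed the filter; the highest, Rcvrn, had at most 0.681 FPKM.

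The 4 potassium channel interacting genes, relatives of the sensors that bind Kv4 channels, had a median of 0.10, and the highest, Kcnip3, overlapped between the groups with 9.59, 10.3 and 11.6 FPKM in miR-9-3p AAV, against 12.8, 11.0 and 9.28 FPKM in control AAV. The 6 tested genes among 9 other EF-hand buffers were all negative, with a median of -0.81 and -0.42 after adjustment for the lung level, and 4 lay apart as lower in miR-9-3p AAV, as did 16.7% of all tested genes. The highest of them, S100a16, had 26.9, 27.6 and 27.4 FPKM in miR-9-3p AAV, against 39.1, 35.7 and 52.5 FPKM in control AAV (log2 fold change -0.60, limma adjusted p = 0.0649). Many S100 genes are also made outside neurons, and the astrocyte sums and lung levels given above differed between the libraries too. The astrocyte sum was lower in every miR-9-3p AAV library, whereas the lung levels overlapped. That sum includes S100b itself, and 2 of its 8 genes, Slc1a2 and Slc1a3, went the other way. The part of astrocytes and of lung RNA in the S100 values was not tested.

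The 12 NECAB and other neuronal EF-hand genes had a median of -0.17. The highest, Ppp3r1, the calcium-binding subunit of calcineurin, had 91.9, 73.0 and 74.1 FPKM in miR-9-3p AAV, against 76.2, 80.9 and 76.4 FPKM in control AAV, and overlapped. The 4 calmodulin-binding IQ protein genes had a median of 0.12, and the highest, Gap43, a growth cone protein, had 437, 494 and 504 FPKM in miR-9-3p AAV, against 474, 416 and 293 FPKM in control AAV. It overlapped too, and like 9 of the 10 sensor and buffer genes it was lowest in control AAV library 3.

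**Figure D5:**
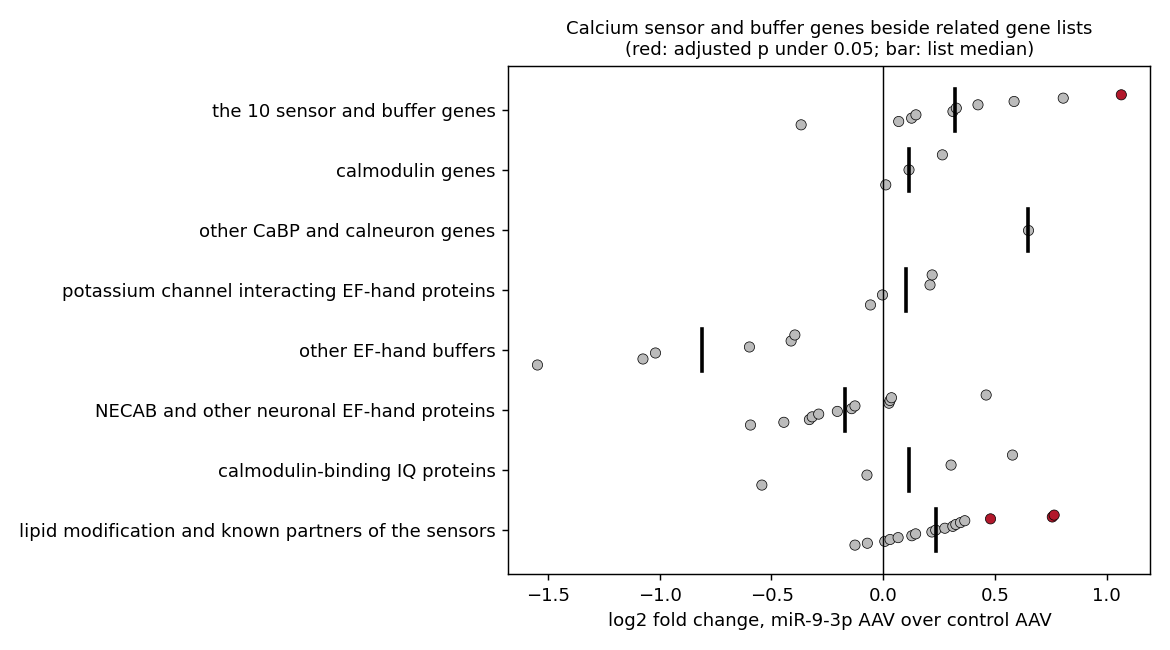
Log2 fold change, miR-9-3p AAV over control AAV, of each tested gene of the 10 sensor and buffer genes and of the related lists, with a bar at the median and red for a limma adjusted p under 0.05. Red points are Caln1 and 3 partner genes, and the other EF-hand buffers, with a median of -0.81, lie left of 0.

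The genes whose log2 levels followed Caln1 most closely over the 6 libraries were Gpr26 (Pearson r 0.997), an orphan G protein-coupled receptor, Rbmx (0.996) and Cstf2 (0.996), both RNA-processing proteins. Their own log2 fold changes were smaller, from 0.28 to 0.33. For Calb2 they were Efnb3, a membrane ephrin (0.998), Ppfia4, a liprin of the presynaptic active zone (0.998), and Scube3 (0.998). For Hpcal1 they were Pyurf (0.993), Exosc1 (0.992) and Notch1 (0.991). These correlations describe 6 libraries that share the group difference and the lung level, and are given with no test.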

How the data were processed

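The libraries were RNA sequencing of mouse primary neurons, 3 with miR-9-3p AAV and 3 with control AAV, grouped by treatment label and title. The authors deposited 1 table of FPKM values with 1 column per library. Per the submitters' processing notes, the build was mm10 and the tools were HISAT2 and Cufflinks 2.2.1. The HISAT2 version, the annotation, the strand setting and any filters are not given in the sources used here. Since these values are scaled to the library total, RNA from another tissue lowers all other values.

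GENCODE M21 gave symbols, coordinates and exon lengths and matched 52083 of 55416 identifiers. Whole reads were recovered from FPKM steps for 98.05% to 98.14% of the values above 0 (within 0.01), which gave the depths. Values on the scale log2(FPKM + 1), which understates changes of low genes, were fitted with limma 3.58.1 in R 4.3.3 (empirical Bayes, intensity trend, two-sided) on the 14229 genes that reached 1 FPKM in 3 or more libraries, and p was Benjamini-Hochberg adjusted over all of them. The fit was also run on simulated data with the same dispersion for all genes and no difference in lung RNA between libraries. That run does not show how the p-values hold in these libraries.

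The members, lists and markers were chosen with earlier results of these data known. In each list up to 3 called genes are named or, with none called, the gene with the highest mean. Calb2's cell markers, the neuron, cerebellar and astrocyte markers, Calm4 and Calm5 were chosen for naming once their values were known. To search seeds, 3′ UTRs were taken from stop codons and exons of coding transcripts. Alternatives were the replicate block, other pseudocounts, filters, scalings, weights, voom on recovered reads, lung terms, and leaving out libraries. Scaling to neuron markers was added after seeing the data.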

Additional observations from a re-analysis of the deposited data

How the results depend on the processing

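Over the 20 alternatives Caln1 kept its direction in each, with log2 fold changes of 0.81 to 1.145 and a limma adjusted p under 0.05 in 13; its adjusted p ran from 0.000662 to 0.25. The count of the 10 genes called higher, 1 in the fit of the values as deposited, was 0 with the replicate block, 0 after scaling to 8 neuron markers, 6 with array quality weights, and 0 to 1 leaving out each library in turn. The count called lower was 1 (Hpcal1, -0.45) with the 2 lung sets as a batch term and 0 otherwise. That batch term gave 1410 genes called higher and 1243 lower in all. With array quality weights, which give libraries unequal weight, 3183 genes were called higher and 3262 lower in all, against 554 and 341. Those called among the 10 were Caln1, Cabp1, Hpca, Hpcal4, Ncs1 and Calb2. With the replicate block, 0 genes were called in all (2213 at an unadjusted p under 0.05) and the limma adjusted p of Caln1 was 0.25. Same-numbered libraries did not deviate together (Pearson r -0.65, 0.11 and -0.54). The highest r, 0.62, joined miR-9-3p AAV library 1 and control AAV library 3, the most lung-rich of their groups. These r values therefore cannot decide whether the numbers pair the samples. Without miR-9-3p AAV library 1, 2 or 3 or control AAV library 1 or 2, 0 genes were called in all, with 2739 to 3654 genes and 1 to 4 of the 10 at an unadjusted p under 0.05.

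Directions turned for 5 genes, none of them called in a fit where its direction turned. Of the 5, Cabp1 (0.35, limma adjusted p = 0.0157) and Hpca (0.57, limma adjusted p = 0.0212) were called higher with array quality weights. After adjustment for the lung level, Cabp1 was -0.030, Hpca -0.11 and Vsnl1 -0.20. After scaling to neuron markers, Vsnl1 was -0.19, Ncald -0.11 and Calb1 -0.13. With array quality weights, Vsnl1 was -0.039 and Calb1 -0.073. Without miR-9-3p AAV library 1 and control AAV library 3, the most lung-rich of their groups, Vsnl1 was -0.12 and Calb1 -0.078. With the lung sets as batches Vsnl1 was -0.0037. Leaving out each library in turn, Vsnl1 ran from -0.13 to 0.20 and Calb1 from -0.013 to 0.22, both negative without control AAV library 3. The causes were not tested. The 10 genes had 262 to 5441 reads per library, and precision is limited by 3 libraries per group.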
